A study of Mus musculus with 6 samples.

Results

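The dystrophin-glycoprotein complex ties the actin cytoskeleton of a muscle cell, through its membrane, to laminin in the surrounding matrix. Dystrophin (or its relative utrophin) binds actin inside the cell and dystroglycan at the membrane, the sarcoglycans brace dystroglycan, and the syntrophins and dystrobrevin hold signalling proteins on the inner face. Loss of dystrophin or of a sarcoglycan leads to muscular dystrophy and cardiomyopathy. The 8 genes described here were taken as a list, Dmd, Utrn, Dag1, Sgca, Sgcb, Sgcd, Sntb1 and Dtna, out of 21887 RefSeq protein-coding genes, and each was read over its annotated body with 10 kb on each side.

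H3K27ac, the acetylation of histone H3 at lysine 27 that marks active promoters and enhancers, had been mapped by CUT&RUN, in which a nuclease tethered to the antibody releases the marked chromatin. The nuclei came from the left ventricle of FVB mice of 8 to 12 weeks and were sorted for PCM-1, a protein found at cardiomyocyte nuclei. WT libraries are the controls, and HOM libraries come from mice with a CRISPR deletion of Nppa-Nppb, the adjacent genes of the atrial and B-type natriuretic peptides. The protocol text common to both groups lists Myh6-MerCreMer, nTnG and a ROSA26 Sun1/sfGFP line on FVB/N, without saying which libraries carry them. Each group had 3 libraries (replicates 1 to 3, called WT1 to WT3 and HOM1 to HOM3), with a peak list each, and the labels do not say whether they came from separate mice, so the spread between libraries may be technical.

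The lists differed widely in length within each group. WT1, WT2 and WT3 held 21340, 72362 and 106605 peaks, and HOM1, HOM2 and HOM3 held 48102, 1462 and 15184. HOM2 covered 0.296 Mb of the genome, against 4.54 to 55.7 Mb in the other libraries, so results are given with and without it. The HOM2 peaks were also narrower, with a median width of 84 bp against 232 to 291 bp in the other libraries. Their smallest width was 57 bp against 162 to 177 bp. Between Nppb and Nppa (chr4:147985786-148002074 in mm10) there were 1, 2 and 4 peaks in the WT libraries and 0 in each HOM library. Windows of all 8 cardiomyocyte markers (Myh6, Tnnt2 and Ttn among them) held peaks in 5 libraries and none did in HOM2. Of 8 fibroblast markers 0 or 1 had a peak in any library, with Col1a1, Col3a1 and Pdgfra at 0 throughout. Among the libraries, 0 to 5 of 8 endothelial, 0 to 7 of 8 smooth muscle and pericyte, 0 to 4 of 8 immune and 0 to 3 of 4 Schwann and nerve markers had a peak, and the part of other cells in the results was not tested. On the Y chromosome below 80 Mb, WT1 carried 111 peaks and HOM1 carried 112, while the other libraries carried 1 to 5.

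Dag1, Sgca, Sgcd, Dtna and Utrn held peaks in every library except HOM2, while Sgcb and Sntb1 were almost bare. In such bulk libraries, fewer marked nuclei and less mark per nucleus cannot be told apart. In WT1, WT2 and WT3 a peak lay in the windows of 6, 7 and 7 of the 8 genes, where 26.2%, 50.8% and 60.4% of all gene windows held a peak. HOM1, HOM2 and HOM3 had peaks at 6, 0 and 5 of the 8 genes, beside 40.6%, 2.44% and 20.5% of all windows. These 5 genes had a peak in all 3 WT libraries and in HOM1 and HOM3, as did 16.5% of all genes, and 0 of the 8 lacked a peak in every library, as 37.9% of all genes did. Long windows meet a peak more easily, and 5 of the members (Dmd, Utrn, Sgcd, Sntb1 and Dtna) are from 270.9 to 2390 kb long, where the median protein-coding gene measures 17.17 kb. Coverage is therefore also given as relative coverage, the covered percentage of a gene's window divided by that of all gene windows together. All gene windows together were covered to 0.399%, 2.01% and 3.596% in WT1, WT2 and WT3 and to 1.08%, 0.00673% and 0.266% in HOM1, HOM2 and HOM3.

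**Figure D1:**
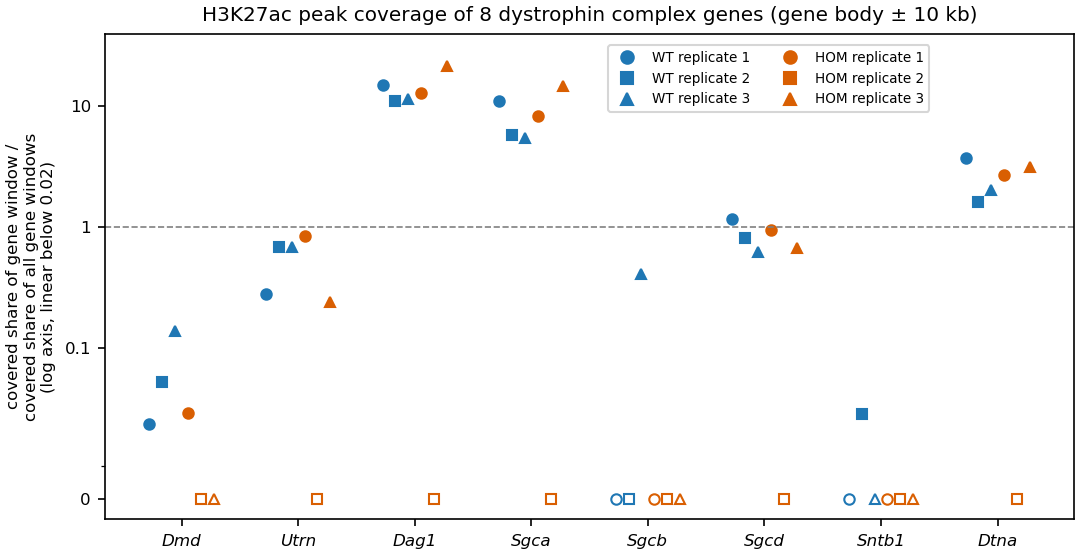
Relative coverage (vertical axis, log scale, linear below 0.02) of each of the 8 gene windows in each library, with open symbols at 0 for a window without a peak and a dashed line at the level of all gene windows together. Dag1, Sgca and Dtna lie above the line in all libraries but HOM2, Utrn and Dmd lie below it in all, and Sgcb and Sntb1 are empty in 5 of 6 libraries each.

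Dmd encodes dystrophin, the long rod that binds actin at its head and dystroglycan near its tail, and its several promoters give full-length and shorter forms. It lies on the plus strand of chrX:82814664-85205050 (2390 kb) and was sparsely acetylated for its size. There were 1, 9 and 35 peaks in WT1, WT2 and WT3, and 4, 0 and 0 in HOM1, HOM2 and HOM3. These peaks covered 222, 2532 and 11845 bp of the window in WT and 753, 0 and 0 bp in HOM. The groups overlapped, with HOM1 above WT1 and below the other two WT libraries.

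The Dmd peaks were narrow, and many lay within 25 kb of the first listed RefSeq start, position 82948870, which lies inside the annotated gene. Median widths were 222, 298 and 254 bp in WT1, WT2 and WT3 and 194.5 bp in HOM1, and the widest peak measured 1044 bp, in WT3. Within 25 kb of a listed start lay 1 of 1, 5 of 9 and 19 of 35 peaks in the WT libraries, and 4 of 4 in HOM1. Within 5 kb lay fewer, 1, 3 and 7 peaks in WT1, WT2 and WT3 and 0 in HOM1. The nearest peak to that start was 4285, 51 and 76 bp away in WT1, WT2 and WT3 and 14956 bp away in HOM1. The second listed start, 85048295, near the far end of the gene, had its nearest peak of any library 377133 bp away.

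No Dmd position recurred in 4 or more libraries. When touching peaks of the 6 lists were merged, Dmd held 35 regions, of which 25 came from 1 library each. The region with most libraries, chrX:82964970-82966504, was called in WT2 and WT3 and HOM1. The highest fold enrichment of a Dmd peak (the peak caller's own value, used only as a rank within its list) stood at 28.5%, 20.1% and 13.4% from the top in WT1, WT2 and WT3 and at 53.4% in HOM1. Those peaks were chrX:82953155-82953376, chrX:82948921-82949183, chrX:83207853-83208529 and chrX:82966019-82966216 in the same order.

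Coverage below the level of all gene windows together was shared with the other genes of the X chromosome. The windows of the 965 other X-linked genes were covered to 0.0185%, 0.387% and 1.003% in WT1, WT2 and WT3, and the Dmd window to 0.00921%, 0.105% and 0.491%. In HOM1 the figures were 0.0802% for those genes and 0.0312% for Dmd. In every library with a Dmd peak, the X-linked windows thus lay below the level of all gene windows and Dmd lay below the X-linked windows. Among all single genes, many of them without a peak, the covered percentage of Dmd stood at percentiles 73.8, 49.7 and 44.9 in WT1, WT2 and WT3. In HOM1 it stood at percentile 59.5. The number of X chromosomes per nucleus is not given by the labels, and its part in these values was not tested.

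The sequence of the first listed Dmd promoter is shown because many Dmd peaks lay within 25 kb of that start. It covers the 250 bases before the start, chrX:82948620-82948869 on the plus strand of GRCm38.p6 (mm10), from RefSeq, and a peak overlapped it only in WT3.
Dmd: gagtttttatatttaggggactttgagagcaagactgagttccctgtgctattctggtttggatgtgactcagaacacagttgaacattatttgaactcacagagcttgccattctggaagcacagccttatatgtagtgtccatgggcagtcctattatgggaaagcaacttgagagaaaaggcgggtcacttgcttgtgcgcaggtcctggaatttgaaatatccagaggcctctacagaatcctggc
On neither strand does it hold the motifs searched, which were TAAAAATA for MEF2 factors, AGATAA for GATA factors, GGAATG for TEAD factors, CAGCTG for E-box proteins and AAGGTCA for oestrogen-related receptors. Among all 32851 promoters, 2.45%, 9.99%, 12.6%, 13.0% and 4.08% hold these motifs, in the same order. None of these motifs contains another, and each was counted on its own even where matches overlapped.

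Utrn encodes utrophin, the close relative of dystrophin that binds the same partners. It occupies the minus strand of chr10:12382187-12869888 (487.7 kb). In every library but HOM2 a larger percentage of its window was covered than at Dmd. Its coverage was likewise below the level of all gene windows together, but not below that of most single genes. Among all genes the covered percentage stood at percentiles 74.5, 68.1 and 63.8 in WT1, WT2 and WT3. In HOM1 and HOM3 the percentiles were 74.3 and 79.8. WT1, WT2 and WT3 had 3, 22 and 33 peaks there, HOM1, HOM2 and HOM3 had 15, 0 and 1, and relative coverage came to 0.28, 0.677 and 0.684 in WT and 0.84, 0 and 0.241 in HOM. HOM1 was the highest library by this measure and HOM2 and HOM3 the lowest, so the groups overlapped.

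A single Utrn region recurred, at chr10:12866794-12867578, inside the annotated gene and 5059 bp upstream of the listed start (12861735). It was called in 5 libraries, over 178, 755 and 628 bp in WT1, WT2 and WT3 and over 541 and 325 bp in HOM1 and HOM3. Its fold ranked 28.5%, 7.55% and 13.4% from the top in the WT lists and 38.6% and 38.4% in HOM1 and HOM3. No peak overlapped the promoter of the listed start in any library. Within 50 kb of that start lay 2 of 3, 17 of 22 and 21 of 33 peaks in the WT libraries and 12 of 15 and 1 of 1 in HOM1 and HOM3.

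**Figure D2:**
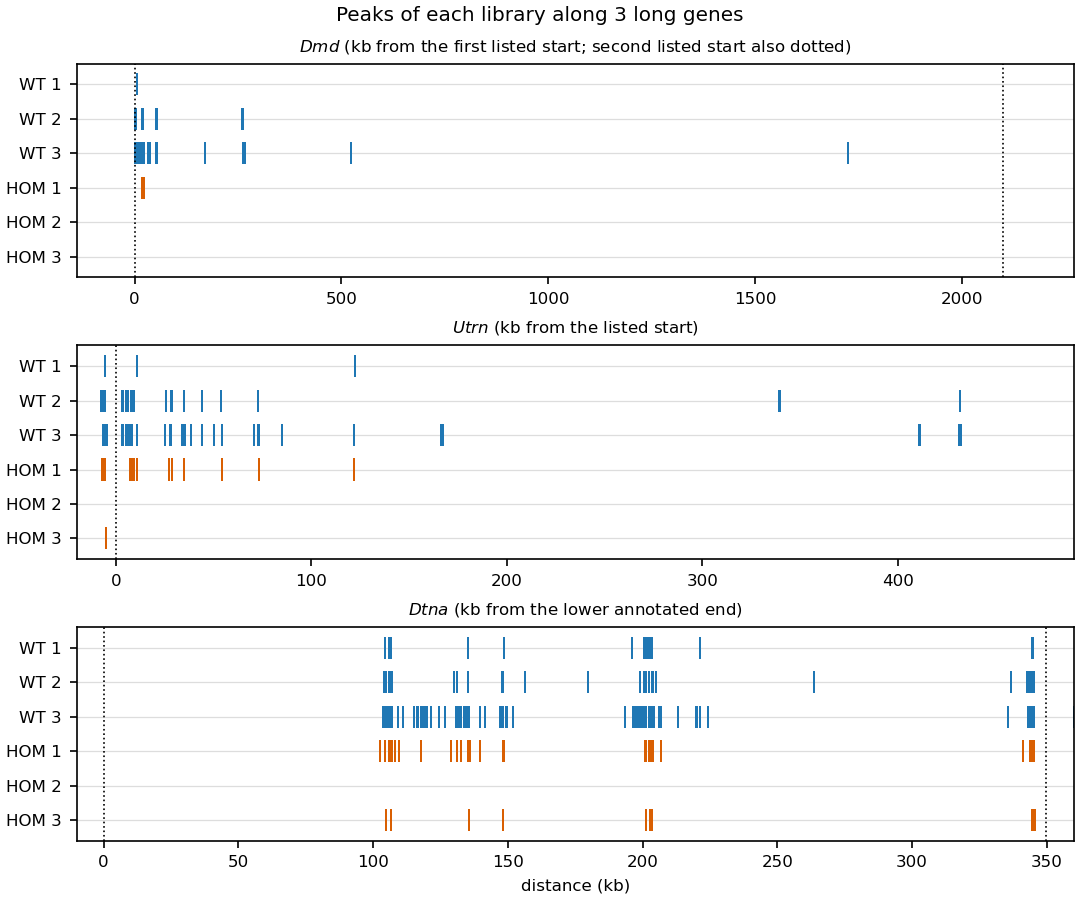
Positions of all peaks along Dmd, Utrn and Dtna in each library, as distance in kb from the listed start (Dmd and Utrn, in the direction of transcription) or from the lower annotated end (Dtna), with very narrow peaks widened to stay visible. Peaks crowd near the first Dmd start and the Utrn start, and those of Dtna fall into groups near 105.6, 201.0 and 343.8 kb with HOM2 empty.

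Dag1 encodes dystroglycan, whose outer subunit binds laminin and whose membrane subunit binds dystrophin. It was the most densely acetylated member in all 5 libraries with peaks, on the minus strand of chr9:108204861-108263977 (59.1 kb). Peaks numbered 15, 42 and 54 in WT1, WT2 and WT3 and 29, 0 and 16 in HOM1, HOM2 and HOM3. They covered 5.98%, 22.4% and 41.8% of the window in WT and 14.1%, 0% and 5.75% in HOM. Relative coverage came to 15.0, 11.1 and 11.6 in WT and 13.0, 0 and 21.6 in HOM, so that HOM3 was the highest library and HOM2 the lowest. Among all genes the covered percentage of this window stood at the 98.5th to the 99.2nd percentile in those 5 libraries.

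Of 56 merged Dag1 regions 7 recurred in 4 or more libraries, and 3 of these were called in 5. The region chr9:108264015-108266004 begins 57 bp upstream of the start at 108263958 and was covered over 818, 1288 and 1924 bp in WT1, WT2 and WT3 and over 1070 and 831 bp in HOM1 and HOM3. Its fold ranked 17.7%, 5.8% and 1.08% from the top in WT and 4.62% and 4.69% in HOM1 and HOM3. The region chr9:108258909-108263365 lies on the other side of the starts, at the beginning of the transcribed gene.

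The third Dag1 region, chr9:108218190-108223693, lies 40122 bp into the gene and was the broadest. It was covered over 2112, 4048 and 5379 bp in WT1, WT2 and WT3 and over 4151 and 1495 bp in HOM1 and HOM3. Its fold ranked 17.7%, 2.5% and 2.91% from the top in WT and 0.783% and 59.6% in HOM1 and HOM3. In HOM1 it was thus the highest-ranked peak of the gene, and in HOM3 it ranked below the peak at the start. Fold took only 79 distinct values in HOM3 and 76 to 88 over all lists, so many peaks share a rank.

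The Dag1 promoter is shown because it held peaks in both genotypes, in WT2 and WT3 and HOM3. The 231 bases at chr9:108263978-108264208, minus strand of GRCm38.p6 from RefSeq, are those of the 250 before the start at 108263958 that lie outside the annotated gene.
Dag1: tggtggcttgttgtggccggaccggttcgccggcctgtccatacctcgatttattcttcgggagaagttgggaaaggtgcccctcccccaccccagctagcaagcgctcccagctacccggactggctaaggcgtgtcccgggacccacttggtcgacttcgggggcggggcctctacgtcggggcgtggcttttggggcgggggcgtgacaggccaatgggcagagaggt
None of the 5 motifs occurs in these bases, whose GC content is 65.8%, against a median of 52.4% over all promoters.

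Sgca, Sgcb and Sgcd encode alpha-, beta- and delta-sarcoglycan, membrane proteins that assemble as a unit beside dystroglycan. Their acetylation differed widely, with Sgca dense around its start, Sgcd carrying the highest-ranked peaks of all members, and Sgcb nearly bare. Sgca is a short gene (chr11:94962777-94976327, 13.55 kb, minus strand). It had 3, 7 and 5 peaks in WT1, WT2 and WT3 and 6, 0 and 4 in HOM1, HOM2 and HOM3. Relative coverage came to 11.0, 5.74 and 5.49 in WT and 8.4, 0 and 14.8 in HOM. HOM3 was the highest and HOM2 the lowest, so again the groups overlapped.

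All Sgca peaks lay within 5 kb of the start, and 2 of the 4 merged regions recurred. The region chr11:94974442-94978152 contains the start and was covered over 1477, 2799 and 3711 bp in WT1, WT2 and WT3 and over 2546 and 1136 bp in HOM1 and HOM3. The region chr11:94971945-94974356, further into the gene, was called in WT2 and WT3 and HOM1 and HOM3. The best Sgca peak ranked 6.82%, 1.35% and 2.42% from the top in the WT lists and 9.63% and 59.6% in HOM1 and HOM3. The window also holds Hils1 and the end of Col1a1, and no recurrent region lay on either.

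Sgcd, on the minus strand of chr11:46971077-47989451 (1018 kb), carried the top peaks of the complex. It had 14, 28 and 32 peaks in WT1, WT2 and WT3 and 21, 0 and 5 in HOM1, HOM2 and HOM3. They covered 4854, 17068 and 23191 bp in WT and 10543, 0 and 1854 bp in HOM. Relative coverage came to 1.17, 0.818 and 0.621 in WT and 0.939, 0 and 0.671 in HOM, close to the level of all gene windows. By number of peaks the groups overlapped, HOM1 lying between WT1 and WT2.

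The best Sgcd peak stood at rank 309.5 of 21340, 134 of 72362 and 91 of 106605 in WT1, WT2 and WT3, that is 1.45%, 0.185% and 0.0854% from the top. In HOM1 and HOM3 it stood at rank 220.5 of 48102 and 343.5 of 15184, or 0.458% and 2.26% from the top. No other member had a better-ranked peak in WT2 and WT3 and in HOM1 and HOM3, and in WT1 Dtna shared the rank. The widest Sgcd peaks measured 767, 3983 and 3889 bp in WT1, WT2 and WT3 and 2099 and 528 bp in HOM1 and HOM3.

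These peaks formed a cluster at and downstream of the listed start (47379325), which lies inside the annotated gene and not at its end. Within 25 kb of the start lay 13 of 14, 11 of 28 and 11 of 32 peaks in the WT libraries and 10 of 21 and 5 of 5 in HOM1 and HOM3. The region chr11:47374651-47379805 contains the start and was covered over 2659, 4542 and 5034 bp in WT1, WT2 and WT3 and over 3815 and 737 bp in HOM1 and HOM3. Its best fold ranked 1.45%, 0.238% and 0.194% from the top in WT and 0.458% and 2.26% in HOM1 and HOM3. It was the only recurrent region of the 8 genes whose best peak ranked within the top 10% of every list that held it.

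A second strong Sgcd region, chr11:47361894-47365782, lies 13543 bp downstream of the start within the gene. It was covered over 1435, 3612 and 3889 bp in WT1, WT2 and WT3 and over 2515 and 589 bp in HOM1 and HOM3. Its best fold ranked 1.96%, 0.185% and 0.0854% from the top in WT and 0.783% and 59.6% in HOM1 and HOM3. Between it and the start, chr11:47370713-47373833 was also called in 5 libraries, and chr11:47349374-47350058, further in, was called in 4.

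**Figure D3:**
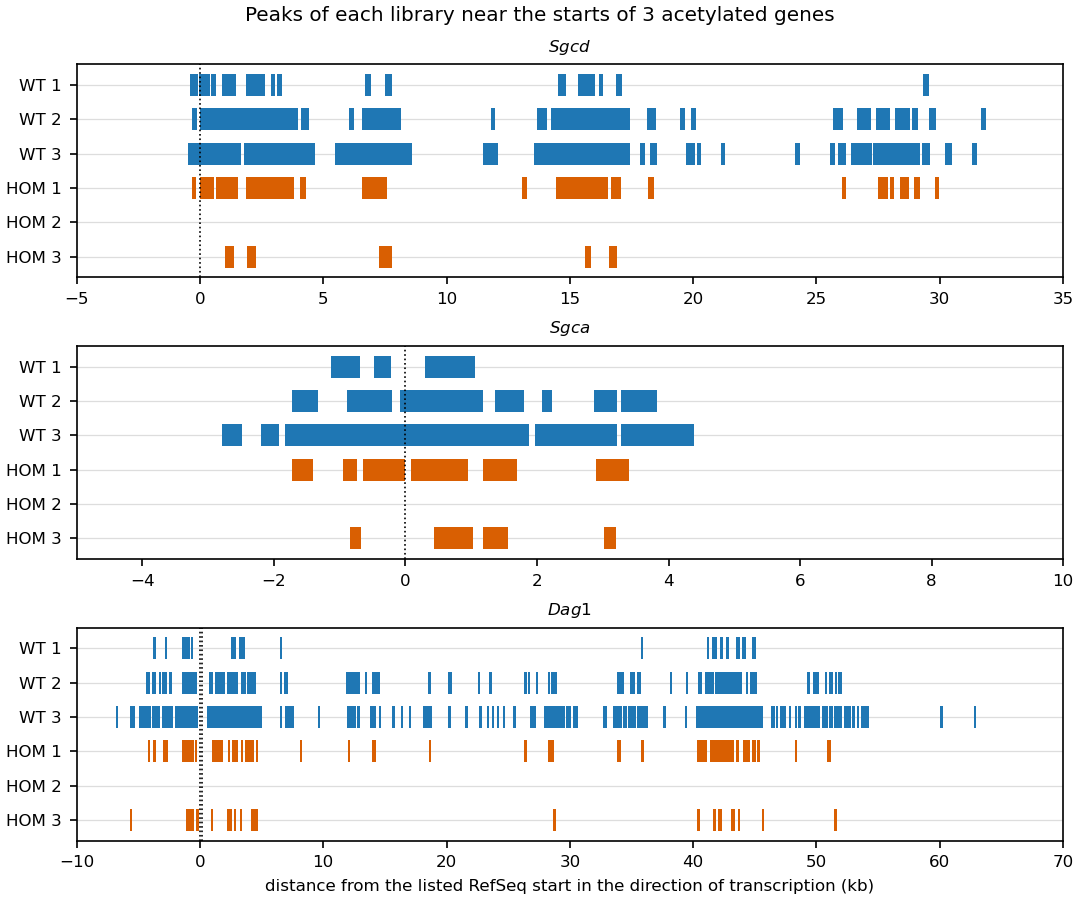
Peaks of each library (bars, to scale) near the starts of Sgcd, Sgca and Dag1, with distance in kb from the listed start in the direction of transcription and dotted lines at the starts. HOM2 is empty. In the other libraries peaks lie on both sides of the starts, except at Sgcd in HOM3, where they lie only downstream. Further groups lie from 13543 bp downstream of the listed Sgcd start, which is inside the annotated gene, and from 40122 bp into Dag1.

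The promoters of Sgcd and Sgca are shown because both were overlapped by peaks in the 3 WT libraries and in HOM1, and that of Sgcb, chosen after its values were seen, as the sarcoglycan promoter no peak overlapped. They are the 250 bases before each start, at chr11:47379326-47379575 for Sgcd, chr11:94976328-94976577 for Sgca and chr5:73647738-73647987 for Sgcb, all from the minus strand of GRCm38.p6 (RefSeq). Capitals mark the motif GGAATG.
Sgcd: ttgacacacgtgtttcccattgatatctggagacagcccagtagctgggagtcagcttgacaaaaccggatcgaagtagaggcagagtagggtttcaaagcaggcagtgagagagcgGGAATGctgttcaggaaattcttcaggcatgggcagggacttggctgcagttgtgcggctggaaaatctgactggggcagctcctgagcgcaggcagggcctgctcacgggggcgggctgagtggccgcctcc
Sgca: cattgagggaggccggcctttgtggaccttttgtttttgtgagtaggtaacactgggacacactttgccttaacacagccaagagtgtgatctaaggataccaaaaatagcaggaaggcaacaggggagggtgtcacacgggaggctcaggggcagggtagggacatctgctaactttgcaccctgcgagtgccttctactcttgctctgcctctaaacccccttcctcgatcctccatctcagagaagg
Sgcb: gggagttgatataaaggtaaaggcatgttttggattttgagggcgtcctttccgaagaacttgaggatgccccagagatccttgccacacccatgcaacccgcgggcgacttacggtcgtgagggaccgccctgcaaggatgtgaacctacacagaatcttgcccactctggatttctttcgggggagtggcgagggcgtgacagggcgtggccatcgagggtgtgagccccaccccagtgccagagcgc
Of the 5 motifs, GGAATG in Sgcd was the only match, beginning 133 bases before the start, and 12.6% of all promoters hold this motif. Peaks overlapped 3.0%, 14.2% and 24.3% of all promoters in WT1, WT2 and WT3 and 8.21%, 0.0791% and 2.26% in HOM1, HOM2 and HOM3. In HOM3 the nearest peak lay 1003 bp from the Sgcd start and 439 bp from the Sgca start.

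Sgcb (chr5:73632749-73647737, 14.99 kb, minus strand) had 0, 0 and 3 peaks in WT1, WT2 and WT3 and 0 in each HOM library. The peaks of WT3 were chr5:73629964-73630125, on the neighbouring gene Lrrc66, and chr5:73647087-73647265 and chr5:73647488-73647656, just inside the start of Sgcb. They measured 162, 179 and 169 bp, and the best stood at rank 71123.5 of 106605. In all libraries the gene was thus unmarked or marked by weak peaks of the longest list.

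The cytoplasmic members differed as sharply. Sntb1 (chr15:55636388-55907302, 270.9 kb) encodes beta-1-syntrophin, an adaptor that binds dystrophin and dystrobrevin. Its window held 1 peak in all, chr15:55906277-55906441 in WT2, of 165 bp and at rank 62646 of 72362. The other 5 libraries had 0.

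Dtna (chr18:23310006-23659719, 349.7 kb) encodes alpha-dystrobrevin, a dystrophin-related protein that binds dystrophin and the syntrophins. It had 14, 22 and 54 peaks in WT1, WT2 and WT3 and 25, 0 and 10 in HOM1, HOM2 and HOM3. Relative coverage came to 3.72, 1.6 and 2.04 in WT and 2.7, 0 and 3.14 in HOM. Apart from HOM2 every library was above the level of all gene windows, and both HOM values lay within the WT range.

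Dtna had 66 merged regions, 51 of them from 1 library each, and 7 recurrent regions, all called in 5 libraries and all inside the gene. They lay at 105.6, 135.2, 148.2, 201.0, 203.4, 343.8 and 345.1 kb from the lower end of the gene. At chr18:23413633-23417562 the best fold ranked 2.8%, 0.982% and 1.08% from the top in WT1, WT2 and WT3 and 6.71% and 13.4% in HOM1 and HOM3. Peaks of chr18:23510157-23511779 ranked 1.45%, 4.42% and 0.518% in WT and 6.71% and 38.4% in HOM1 and HOM3. Those of chr18:23654518-23655729, near the upper end, ranked 11.1%, 1.35% and 3.48% in WT and 1.53% and 23.2% in HOM1 and HOM3. The order of the regions by rank therefore differed between libraries.

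Across the 8 genes, 21 of 237 merged regions recurred in 4 or more libraries (8.86%), beside 10.5% of 114976 regions genome-wide. Dag1 and Dtna held 7 each, Sgcd 4, Sgca 2 and Utrn 1. Of these 21, the only ones outside an annotated member were 3 upstream of Dag1. The genes whose 6 within-library percentiles of window coverage came closest to those of a member (Euclidean distance over 6 libraries, on other chromosomes) were Cipc for Dag1 (0.544 percentile points), Exog for Sgca (1.15) and Ulk4 for Dmd (1.32). The closest were Ank2 for Utrn (1.91), Bcl7a for Dtna (1.95) and Dnah12 for Sgcd (2.55). For the nearly empty Sgcb and Sntb1 they were Znrf4 (0.0228) and Clca3a1 (0.00457), a likeness that rests on shared zeros.

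**Figure D4:**
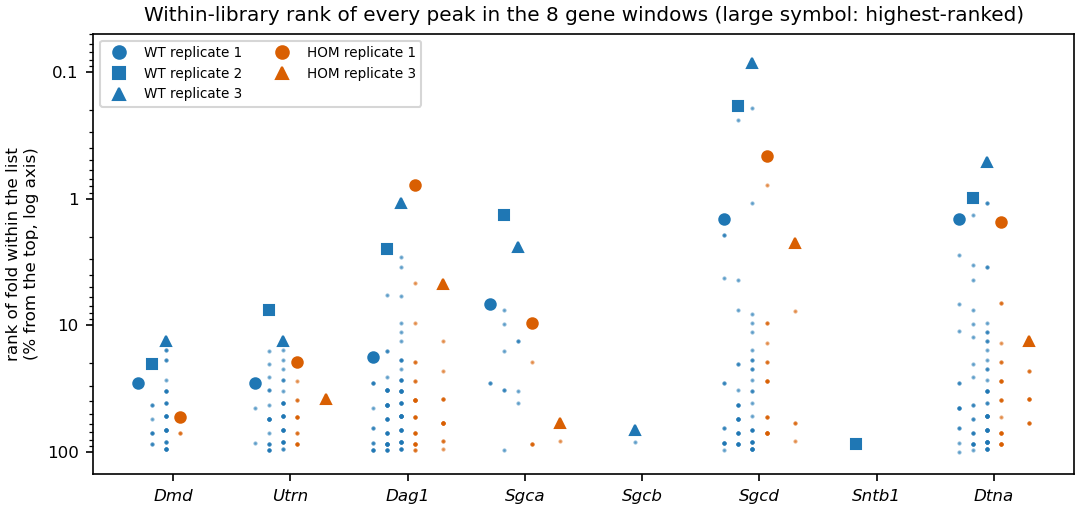
Within-library rank of fold, as percent from the top (log axis, best at the top), of every peak in the 8 gene windows, with the best peak per gene and library as a large symbol. Sgcd has the best ranks, 0.0854% to 2.26% from the top, while the best Dmd and Utrn peaks lie between 7.55% and 53.4%.

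To ask whether the deletion went with a change at these genes, the covered length in each window was divided by the covered length of the whole list and given in bp per Mb, here called the share. The 20 ways of assigning 6 libraries to 2 groups of 3 allow no exact permutation p below 0.1. No member had groups that did not overlap, where 5.32% of all genes had every HOM library lower and 0.164% had every HOM library higher. Without HOM2 this held for 5.5% and 2.7% of all genes, and again for 0 members. Nor did any member have a peak in all WT and no HOM library, as 1.21% of genes did, or the reverse, as 0.0% did. Without HOM1 the former would hold for Dmd and for 1891 genes in place of 265, and without WT1 for 2283 genes and no member. Of all 21887 genes 0 passed an adjusted p of 0.05 (Benjamini-Hochberg over all genes), and 0 had an unadjusted p under 0.05.

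Dag1, the dystroglycan gene, had shares of 707, 559 and 594 bp per Mb in WT1, WT2 and WT3 and 647, 0 and 1001 in HOM1, HOM2 and HOM3. WT averaged 620 ± 77.3 and HOM averaged 549 ± 508 (SD, n = 3 each), which gives -70.7 for HOM minus WT (two-sided exact permutation p of 0.9). Without HOM2 the difference was 204 (exact permutation p of 0.3). Its sign thus depended on the library with 1462 peaks.

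Sgcd shares were 725, 540 and 417 bp per Mb in WT1, WT2 and WT3 and 613, 0 and 408 in HOM1, HOM2 and HOM3. The difference of -220 between 561 ± 155 and 340 ± 312 (SD, n = 3 each) had an exact permutation p of 0.4, and without HOM2 it was -50.0 (exact permutation p of 0.8). HOM3 lay below all WT libraries and HOM1 within their range.

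For Dtna the shares were 822, 376 and 488 bp per Mb in WT1, WT2 and WT3 and 628, 0 and 680 in HOM1, HOM2 and HOM3. The difference was -126 between 562 ± 232 and 436 ± 378 (SD, n = 3 each; exact permutation p of 0.7), and 92.1 without HOM2 (exact permutation p of 0.7). Sgca had shares of 221, 122 and 119 in WT and 177, 0 and 290 in HOM. Its means of 154 ± 57.8 and 156 ± 146 (SD, n = 3 each) differed by 1.8 (exact permutation p of 1.0), and by 79.7 without HOM2 (exact permutation p of 0.3).

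Utrn shares were 84.9, 218 and 224 bp per Mb in WT1, WT2 and WT3 and 268, 0 and 71.6 in HOM1, HOM2 and HOM3, with a difference of -62.6 (exact permutation p of 0.6). Leaving out HOM2 brought it to -5.96 (exact permutation p of 0.9). Dmd shares were 33.2, 80.1 and 213 in WT and 43.8, 0 and 0 in HOM, with a difference of -94.1 (exact permutation p of 0.2), or -86.8 without HOM2 (exact permutation p of 0.4). For Sgcb and Sntb1, with peaks in 1 library each, the differences were -3.05 and -1.74 (exact permutation p of 1.0 for both). Every adjusted p of the 8 genes was 1.0 by the same test.

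By sign alone, 7 of the 8 members were lower in HOM and 1 higher, with a median difference of -66.6 bp per Mb. Among all genes 11817 were lower and 1774 higher, with a median of -1.24. These medians are not on the same scale. The median share of the members was 153, 170 and 218 bp per Mb in WT1, WT2 and WT3, against 0.0, 5.22 and 8.32 for all genes. Of all genes, 37.9% had no peak in any library and so no difference. Without HOM2, 5 members were lower and 3 higher (median -2.4), and all genes split into 9937 lower and 3653 higher (median 0.0). Between WT1 and HOM1, the libraries with Y chromosome peaks, the HOM minus WT differences were 10.6 for Dmd, 183 for Utrn, -60.1 for Dag1, -43.5 for Sgca, -112 for Sgcd and -193 for Dtna. Among the other 4 libraries they were -146, -186, -76.0, 24.4, -274 and -92.0 in the same order, so Dmd, Utrn and Sgca changed sign between these sets. With HOM2 left out of the latter, the differences were -146, -150, 425, 170, -70.0 and 248, so Dag1 and Dtna changed sign as well. The part of list length and of the Y chromosome split in these values was not tested.

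When HOM2 was left out and each list cut to its 15184 strongest peaks, the same members stayed marked. Dag1 then had 7, 4 and 6 peaks in WT1, WT2 and WT3 and 5 and 16 in HOM1 and HOM3. Sgcd had 8, 6 and 6 against 11 and 5, Dtna 12, 8 and 10 against 10 and 10, and Sgca 3, 4 and 3 against 3 and 4. Utrn kept 2, 3 and 3 against 3 and 1 peaks, Dmd 1, 0 and 0 against 0 and 0, and Sgcb and Sntb1 none. At equal length Dag1, Sgca, Sgcd, Dtna and Utrn thus had peaks in each of these 5 libraries.

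The rest of the complex was read over 24 further genes, grouped by role. Peaks lay in 10, 19 and 19 of their windows in WT1, WT2 and WT3 and in 12, 5 and 9 in HOM1, HOM2 and HOM3, where 26.2%, 50.8%, 60.4%, 40.6%, 2.44% and 20.5% of all gene windows held a peak in the same order. Sspn (sarcospan, a membrane partner of the sarcoglycans), Hspg2 (perlecan, a matrix ligand of dystroglycan), Cav3 (caveolin of muscle) and B3galnt2 and Gmppb, which act in the glycosylation of dystroglycan, had peaks in 6 libraries. Those with peaks in 5 were Sntg2 (a syntrophin), Lama2 (the laminin alpha-2 chain that dystroglycan binds) and Plec (plectin). Sgce, Nos1 and Pomgnt2 had none. The only HOM2 peak of the Gmppb window, chr9:108057159-108057243, lay in the flank and not on the gene (chr9:108049239-108051923). None of the 24 had a peak in all WT and no HOM library (1.21% of all genes) or the reverse (0.0%), and 0 passed the adjusted p of 0.05 in the exact permutation test.

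Other sarcoglycan and syntrophin genes were read the same way, and not all of them are described. Sgcz, a sarcoglycan gene of 1143866 bp and so as long as Sgcd, had 0, 1 and 2 peaks in WT1, WT2 and WT3 and 0 in each HOM library, and Sgce, another sarcoglycan gene, had none. Of the syntrophin genes, Sntg2 had 2, 5 and 3 peaks in WT and 2, 0 and 2 in HOM, Sntb2 had 0, 0 and 3 in WT and 0 in each HOM library, and Sntb1 had 1 peak in all libraries together.

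Of these genes with peaks in 5 or more libraries, Sspn and Lama2 had the largest differences in share over all 6 libraries. Without HOM2 the order was Sspn, Hspg2 and Lama2, the Hspg2 difference going from 17.9 to 247 bp per Mb (exact permutation p of 0.4 without HOM2). Sspn shares were 700, 610 and 490 bp per Mb in WT1, WT2 and WT3 and 791, 1040 and 1160 in HOM1, HOM2 and HOM3, so that HOM exceeded WT by 395 (exact permutation p of 0.1, the minimum that 3 against 3 allow). Every HOM library was above every WT library, as for 0.164% of all genes (2.7% without HOM2), and the HOM2 share rests on 2 peaks. Without HOM2 the difference was 373 (exact permutation p of 0.1), while at equal list length it was 332 (exact permutation p of 0.2). Lama2 shares were 639, 572 and 660 in WT and 450, 0 and 338 in HOM, a difference of -361 (exact permutation p of 0.1), and at equal list length -321 (exact permutation p of 0.1). Without HOM2 it was -229 (exact permutation p of 0.1), and the remaining HOM libraries were still below every WT library. Pomgnt1 (dystroglycan glycosylation), chosen after its values were seen, also had every HOM library below every WT library, with a difference of -20.5 bp per Mb, and 5.32% of all genes did so. Without HOM2 the groups also separated for Plec, higher in HOM by 23.8, and for Cav3 and Gmppb, with differences of -50.8 and -20.4, where 2.7% of all genes had HOM higher and 5.5% had HOM lower. At equal list length, also without HOM2, the differences were -0.398 for Plec, -17.9 for Gmppb, -19.2 for Pomgnt1 and -86.4 for Cav3. The groups then overlapped for Plec, Gmppb and Pomgnt1, and those of Cav3 did not. None of the genes named here passed the adjusted p in the test over all genes.

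HOM2 limits what these shares can show. Its list is so short that a gene of the 24 with 1 peak there (Hspg2, Cav3, B3galnt2 or Gmppb) had a share of 193 to 382 bp per Mb, above the mean WT share of Utrn (176) and Sgca (154). The mean WT shares of Utrn and Sgca were therefore smaller than any of these 1-peak shares. Single WT shares reached 218 and 224 for Utrn (WT2 and WT3) and 221 for Sgca (WT1), above the lowest of them. Dag1, Sgcd and Dtna, with mean WT shares of 620, 561 and 562, also had 0 in HOM2. Why these windows were empty there was not tested.

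**Figure D5:**
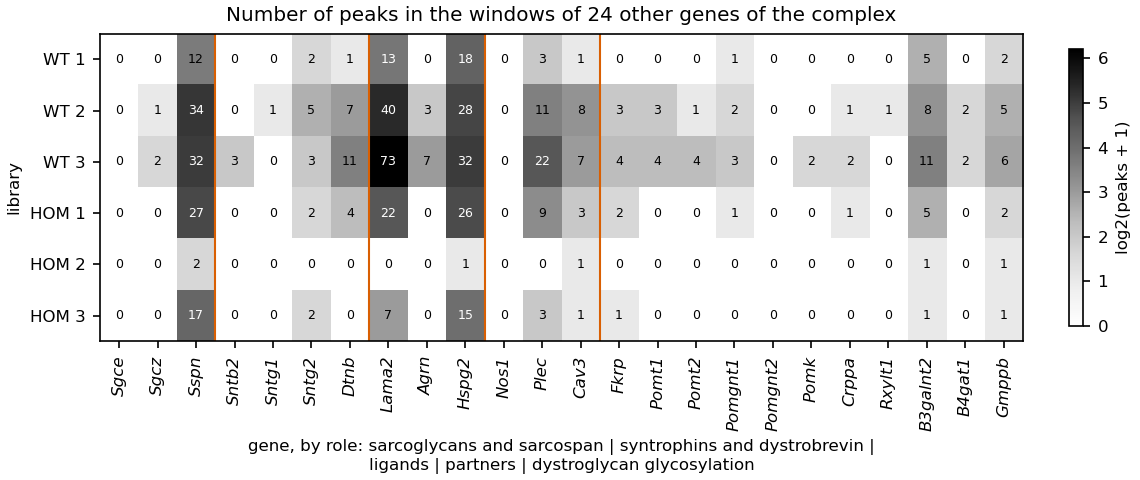
Number of peaks (printed, with shading by log2 of the number plus 1) in the windows of the 24 other genes of the complex in each library, ordered by role. Sspn, Hspg2, Cav3, B3galnt2 and Gmppb have peaks in all 6 libraries, and Sgce, Nos1 and Pomgnt2 have none.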

How the data were processed

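H3K27ac CUT&RUN peaks of 3 WT and 3 HOM libraries were analysed, grouped and numbered by the sample titles. Per the submitters' processing notes, BWA, MACS2 and the build mm10 were used; the sources used here give no versions. The authors deposited 1 list per library, called separately, holding per peak a score, a fold enrichment, a −log10 p-value and a −log10 q-value. The fold and the −log10 q are the authors' values and served only to rank and filter peaks within a list. The lists hold no read counts, so depth is unknown, and it was replaced by each list's length and covered length.

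Genes and promoters came from RefSeq tables of GRCm38.p6 (mm10). All 8 members matched by symbol, and 6 had a promoter entry. A window was the gene with 10 kb on each side, and an overlap needed 1 bp. Covered lengths count overlapping peaks of a library once, touching peaks of all lists were merged into regions, and ties in fold took their mean rank. Shares were compared by two-sided exact permutation tests over 21887 genes with Benjamini-Hochberg adjustment, and coverage counting and the test were tested on simulated data. All 8 members are described. Of the other genes of the complex, those with peaks in 5 or more libraries or in none are named, and some genes of that list are not reported here. Regions named were at most 4 recurrent ones per gene, and sequences were promoters that hold a peak, with that of Sgcb, which holds none, added after its values were seen. Members and lists were chosen with earlier results of these data known. Alternatives were other flanks, the stronger 50% of peaks, equal list length without HOM2 and each library left out. Others were a replicate block, other measures, and libraries split by Y chromosome peaks. Same-numbered libraries were not treated as pairs in the main test, and the labels do not say whether they were. Their deviations from the group means correlated at -0.085, -0.105 and -0.141 over 13591 genes, which cannot settle it with 3 libraries per group. The tools were scipy 1.17.1, pandas 2.3.3 and numpy 2.4.6 under Python 3.11.15, with figures drawn by matplotlib 3.10.9.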

Additional observations from a re-analysis of the deposited data

How the results depend on the processing

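Over all alternatives, 96 of the differences of the 8 genes kept their sign, 8 became 0 and 16 reversed. The 96 include the replicate block, whose differences could not change, and Dmd at other flanks, where the value stayed at -94.1. Of the differences tested, by exact permutation or sign-flip tests, none passed 0.05, which the smallest possible p did not allow. Values within the sets split by Y chromosome peaks had no test. Sgca, 1.8 bp per Mb as reported, was -20.5 with flanks of 50 kb, -167 with the stronger 50% of peaks, -43.5 between the libraries with Y chromosome peaks and -2530 bp when undivided. At equal list length, a setting that also left out HOM2, Dag1 was 239, Sgcd 8.78 and Dtna 2.0 bp per Mb. Without HOM2 at full list length they were 204, -50.0 and 92.1, so of these genes only Sgcd changed sign with the cut in length. Between the libraries with Y chromosome peaks Dmd was 10.6 and Utrn 183. With each library left out in turn, Sgca ranged from -65.4 to 79.7, Dag1 from -297 to 204 and Dtna from -248 to 92.1. The members with a peak per WT library, 6.67 on average, were 6.0 with the stronger 50% and 5.33 at equal length. Genes with a peak in all WT and no HOM library, 265 as reported, numbered 271 to 2283 with a library left out. They numbered 2283 without WT1 and 1891 without HOM1, and leaving a library out can only keep or raise this count. Genes with the reverse, 0 as reported, numbered 63 at equal length, where HOM2 was left out and lists were cut to 15184 peaks. Without HOM2 at full list length the reverse count was 0. The cause of the rise to 63 was not tested. With the replicate numbers as a block, an exact sign-flip test whose smallest p is 0.25, the differences were the same and 0 genes passed. Of the 6 libraries, 0 correlated best with their own number. Whether same-numbered libraries were pairs is not settled by this, since deviations from a mean of 3 libraries are tied to each other. Depth is not given by the lists, and HOM2, with 1462 peaks, limits every HOM mean.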
